A study of Mus musculus with 12 samples.

Results

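AP-1 is a family of paired transcription factors. Each pair holds a JUN protein joined through a leucine zipper to a second zipper protein, most often one of the FOS family. JUN proteins can also pair with each other, whereas FOS proteins need a partner. The genes Fos, Fosb, Junb and Jun are classic immediate early genes: growth factors and calcium entry switch them on within minutes through MAP kinases, serum response factor and CREB, without new protein synthesis. In astrocytes AP-1 takes part in the responses to injury, growth factors and calcium signals. Described here are the 7 genes that encode its core subunits, 4 of the FOS family (Fos, Fosb, Fosl1 and Fosl2) and 3 of the JUN family (Jun, Junb and Jund), chosen by gene symbol from the 43322 genes of the deposited count table. All 7 were among the 17077 genes with enough counts to be tested.

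Poly-A RNA was sequenced from wild-type cortical glial cells of CD1 mice, labelled as primary cultured astrocytes, each culture prepared from the cortices of 1 mouse of postnatal day 3 to 5. Cells grew with serum, B27 supplement and 10 ng/ml epidermal growth factor (EGF). The cultures of every group, control included, had thus grown with a factor that itself induces AP-1 genes. There were 3 groups of 4 libraries. The thapsigargin group received 3 µM thapsigargin for 60 min, which blocks the SERCA pumps that load calcium into the endoplasmic reticulum. The calcium-free group spent 60 min in medium without calcium and with EGTA, a calcium chelator, and the control group received vehicle. In the calcium-free group the absence of calcium, the EGTA and the change of medium itself cannot be told apart. The study asked how calcium signalling components change when stores cannot be refilled and when external calcium is absent. A single time point was sampled, and RNA was measured, not protein or DNA binding.

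The windows just upstream of Fos, Fosb, Junb and Jun are shown first, because they are the ones that held a match to the searched elements, textbook entry points of calcium and growth factor signals. RefSeq promoter windows (build GRCm38.p6) were matched by symbol for 6 of the 7 genes, and the 250 bases before the annotated start were searched on both strands for the CRE core TGACG (bound by CREB and ATF proteins), the full CRE TGACGTCA that contains that core, the AP-1 site TGANTCA, its variant TGACATCA, the TATA box TATAAA, the CArG box of serum response factor and the MEF2 box. Capitals mark the matches, and the windows run 5′ to 3′ on the strand of the gene, chr12:85473640-85473889 (plus) for Fos, chr7:19310046-19310295 (minus) for Fosb, chr8:84978749-84978998 (minus) for Junb and chr4:95052223-95052472 (minus) for Jun.
Fos: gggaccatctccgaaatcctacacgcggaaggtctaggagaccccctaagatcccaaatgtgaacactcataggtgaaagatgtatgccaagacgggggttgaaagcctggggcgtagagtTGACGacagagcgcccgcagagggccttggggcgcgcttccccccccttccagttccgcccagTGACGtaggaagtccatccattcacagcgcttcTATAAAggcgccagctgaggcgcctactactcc
Fosb: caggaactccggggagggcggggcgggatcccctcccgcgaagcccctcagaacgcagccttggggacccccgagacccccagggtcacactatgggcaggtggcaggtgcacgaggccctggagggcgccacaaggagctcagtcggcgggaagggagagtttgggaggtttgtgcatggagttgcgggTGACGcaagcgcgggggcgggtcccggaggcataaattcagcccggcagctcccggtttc
Junb: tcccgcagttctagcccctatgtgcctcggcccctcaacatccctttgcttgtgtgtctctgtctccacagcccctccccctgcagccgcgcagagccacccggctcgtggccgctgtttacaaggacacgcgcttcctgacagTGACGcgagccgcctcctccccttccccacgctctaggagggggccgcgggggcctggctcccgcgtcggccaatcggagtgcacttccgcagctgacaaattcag
Jun: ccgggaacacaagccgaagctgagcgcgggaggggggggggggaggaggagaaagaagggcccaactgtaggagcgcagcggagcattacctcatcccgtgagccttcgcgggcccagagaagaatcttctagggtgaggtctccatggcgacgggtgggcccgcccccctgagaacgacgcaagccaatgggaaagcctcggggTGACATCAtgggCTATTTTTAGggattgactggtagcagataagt

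Fos held the core TGACG at 66 to 62 bases before its start, the place of its known CRE, and again at 129 to 125 bases, with a TATA box at 33 to 28 bases. Fosb held TGACG at 60 to 56 bases and Junb at 106 to 102 bases before the start. Jun held the AP-1 variant TGACATCA at 45 to 38 bases, through which JUN is known to act on its own gene, and a MEF2 box at 33 to 24 bases. The windows of Fosl2 and Jund held no match to these letters. None of the 6 windows held the full CRE, the AP-1 site TGANTCA or a CArG box. Bases further upstream were not searched, so sites there would be missed. Across all 32851 windows of this length, 17.8% held TGACG, 12.4% the TATA box, 6.75% the AP-1 site, 2.93% TGACATCA, 1.55% the full CRE, 1.47% a CArG box and 0.508% a MEF2 box. A match of letters is a description and no evidence of binding in these cells.

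Library totals ran from 36.19 to 42.57 M counts, so counting error was small except for Fosl1, which had 76 to 214 counts per library. All 16 astrocyte markers passed the filter on low counts, and their summed level was 13130 to 15790 CPM (the usual RNA-seq unit, a gene's count scaled by the normalised library size) with thapsigargin, 14990 to 17750 CPM in calcium-free medium and 14390 to 17320 CPM in control. Markers of other cells were present in every group, and none of the listed markers was at 0 in all 12 libraries. Of the astrocyte markers, 1 was called higher and 3 lower with thapsigargin than in control, and 15 of 16 were below 0 in log2 fold change, with a median of -0.216. Of 14 microglia markers, 0 were called higher and 3 lower, and 13 were below 0, with a median of -0.396. Of 9 tested neuron markers, 1 was called higher and 1 lower, and 8 were below 0. Among all tested genes 16.4% were called higher and 14.8% lower, and the median log2 fold change was -0.047. The sum of the microglia markers was 144.1 to 204.4 CPM with thapsigargin against 172.7 to 267.7 CPM in control. That of the neuron markers was 355.2 to 393.8 against 401.5 to 433.2 CPM. Vascular and fibroblast markers summed to 2132 to 2932 against 2494 to 3470 CPM. For the oligodendrocyte lineage the sums were 1641 to 1990 against 1786 to 1910 CPM. The part of these cells in the AP-1 values was not tested, and in bulk RNA fewer cells of a type and less RNA per cell cannot be told apart. Replicate 4 of each group stood apart: the X-inactivation RNA Xist was at 588 to 740 CPM in these 3 libraries, and no more than 0.319 CPM in the remaining 9. The tests of the subunit genes and the counts over gene lists against control are therefore also given without replicate 4. The series text calls the samples of a group biological replicates. The values do not show whether replicates 1 to 3 came from separate cultures. The p-values without replicate 4 may therefore leave out the spread between cultures.

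Library by library, the FOS genes fell into 3 patterns: Fos was high in both treatments, Fosb and Fosl2 were high with thapsigargin, and Fosl1 was low throughout. Fos (gene 14281, GRCm39 chromosome 12, 85520664 to 85524048, plus strand) encodes c-Fos, the prototype partner of JUN proteins. It was at 238.4, 267.2, 230.7 and 195.5 CPM with thapsigargin, at 187.7, 157.8, 173.6 and 103.6 CPM in calcium-free medium and at 48.54, 47.93, 36.47 and 27.78 CPM in control. The 3 groups did not overlap, with thapsigargin highest and control lowest. Fosb (gene 14282, chromosome 7, 19036621 to 19043970, minus strand) encodes FOSB and, through a spliced form that gene counts do not separate, the long-lived truncated ΔFOSB. It was at 34.37, 35.3, 30.42 and 42.55 CPM with thapsigargin, at 15.64, 12.1, 12.07 and 12.76 CPM in calcium-free medium and at 11.59, 11.39, 10.86 and 12.64 CPM in control. The thapsigargin libraries of Fosb lay apart from the rest, and those of calcium-free medium overlapped the control.

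Fosl2 (gene 14284, chromosome 5, 32292599 to 32315184, plus strand) encodes a FOS-related protein that, like the product of Fosl1, lacks the strong C-terminal activation domain of c-Fos. It was at 96.87, 97.43, 91.34 and 82.82 CPM with thapsigargin, at 61.35, 61.16, 65.67 and 38.2 CPM in calcium-free medium and at 47.55, 50.38, 52.18 and 31.43 CPM in control. Every thapsigargin library of Fosl2 was above every other library, while the calcium-free group overlapped the control through its replicate 4. Fosl1 (gene 14283, chromosome 19, 5497726 to 5505966, plus strand), itself a known AP-1 target, was low throughout. It was at 4.195, 4.877, 3.598 and 2.51 CPM with thapsigargin, at 3.273, 3.329, 3.55 and 2.239 CPM in calcium-free medium and at 3.567, 3.133, 2.831 and 1.813 CPM in control, and the 3 groups overlapped. The Fosl1 locus overlaps Ccdc85b on the opposite strand, which reached 54.5 CPM, and no source used here states whether the counting used strand, so the Fosl1 values are uncertain.

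Among the JUN genes, Jun and Junb were higher in every treated library than in any control library, and Jund was not. Jun (gene 16476, chromosome 4, 94937273 to 94940459, minus strand) encodes c-Jun, the substrate of the JNK kinases. It was at 295.4, 307.1, 291.2 and 279.9 CPM with thapsigargin, at 258.4, 257, 261.4 and 206.2 CPM in calcium-free medium and at 164.3, 170.6, 166.5 and 138 CPM in control, with no overlap among the groups. Junb (gene 16477, chromosome 8, 85703538 to 85705377, minus strand) encodes a JUN protein of weaker activation that can restrain c-Jun. It was at 158.3, 177.7, 156.7 and 131.8 CPM with thapsigargin, at 126.9, 114.5, 116.5 and 92.44 CPM in calcium-free medium and at 67.29, 56.72, 57.57 and 36.11 CPM in control, again with no overlap. Jund (gene 16478, chromosome 8, 71150389 to 71153265, plus strand), known as the constitutively expressed JUN gene, was at 128.4, 131, 124.9 and 136.4 CPM with thapsigargin, at 124, 129, 130.8 and 124.8 CPM in calcium-free medium and at 123, 126, 137.2 and 106.4 CPM in control. Its groups overlapped.

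**Figure D1:**
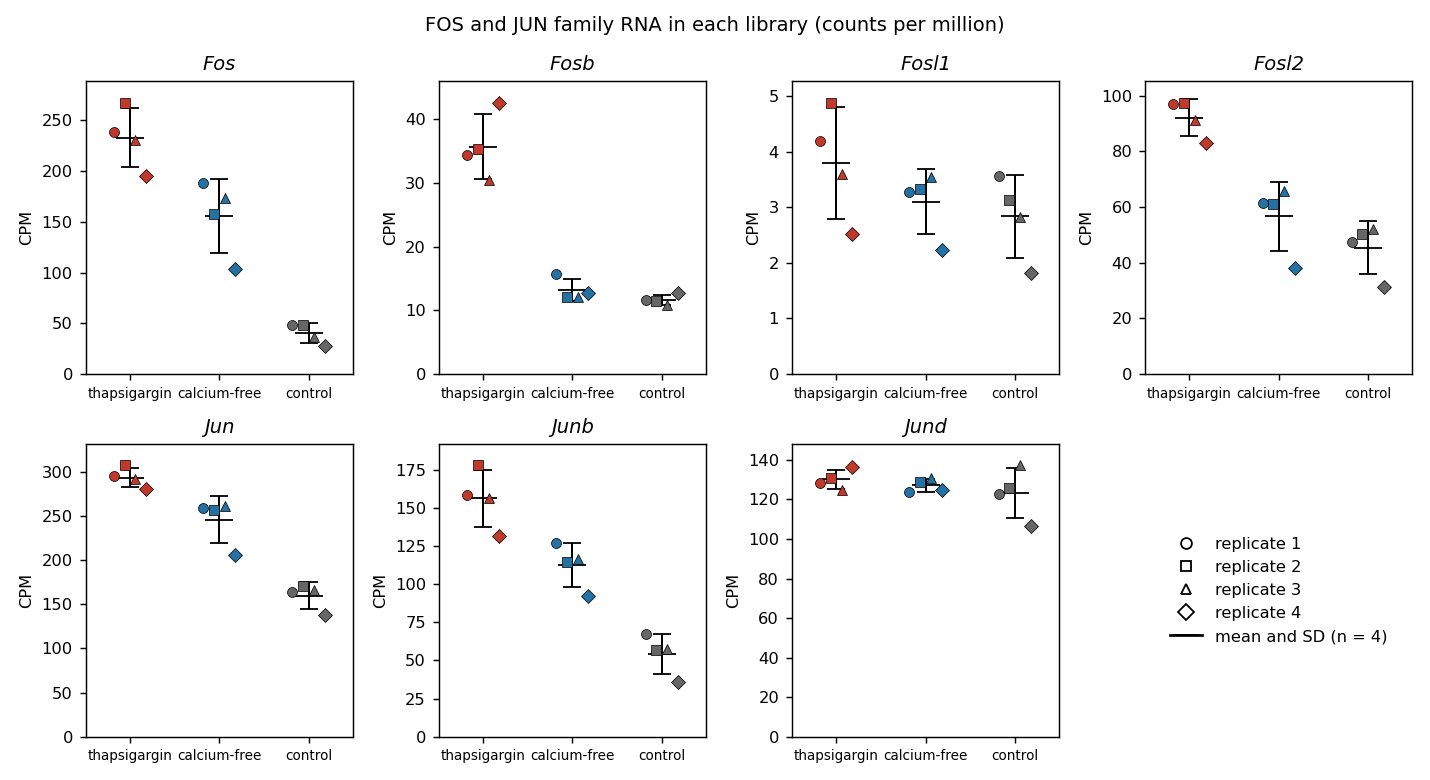
CPM (linear axes from 0) of the 7 subunit genes in each of the 12 libraries, by group, with the mean and SD of 4 libraries and a symbol for each replicate number. Fos, Jun and Junb step down over thapsigargin, calcium-free medium and control with no overlap, Fosb is high with thapsigargin alone (30.42 to 42.55 CPM), and the Jund groups overlap.

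Thapsigargin raised 5 of the 7 subunit genes, where 16.4% of all tested genes were called higher and 14.8% lower (31.2% in all). None of the 7 was lower, a count of 0 that held at an unadjusted p under 0.05 and with DESeq2 too. The same 5 genes were those whose thapsigargin libraries all lay above the control libraries, which held for 16.7% of all tested genes, and 15.1% lay all below. Fos rose by a log2 fold change of 2.54 ± 0.21 (SE), to 233 ± 29.5 CPM with thapsigargin against 40.18 ± 9.96 CPM in control (SD, n = 4; adjusted p = 3.7e-06 with edgeR), and was at rank 6 of 17077 genes by size of increase. Fosb rose by 1.62 ± 0.11 (adjusted p = 9.42e-07), at 35.66 ± 5.06 CPM with thapsigargin and 11.62 ± 0.746 CPM in control, rank 36. Junb rose by 1.52 ± 0.17 (adjusted p = 2.9e-05), at 156.2 ± 18.8 CPM with thapsigargin and 54.42 ± 13.1 CPM in control, rank 40. These 3 genes therefore rose 5.8-fold, 3.07-fold and 2.87-fold.

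The other 2 called genes, Fosl2 and Jun, rose less. Fosl2 rose by 1.02 ± 0.17 on the log2 scale, or 2.03-fold (adjusted p = 0.000772), with 92.12 ± 6.78 CPM with thapsigargin and 45.39 ± 9.49 CPM in control. Jun rose by 0.88 ± 0.08, or 1.84-fold (adjusted p = 9.22e-06), with 293.4 ± 11.2 CPM with thapsigargin and 159.8 ± 14.8 CPM in control (SD, n = 4). Fosl1 was at 0.42 ± 0.24 with a 95% interval of -0.09 to 0.93 (adjusted p = 0.211), and passed the test in the paired fit with a replicate block (0.42, adjusted p = 0.00223) and without replicate 4 in all groups (0.45, adjusted p = 0.00616). Over all alternatives the adjusted p of Fosl1 ran from 0.00223 to 0.516. Jund was at 0.08 ± 0.06, with a 95% interval of -0.06 to 0.22 (adjusted p = 0.388).

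Without replicate 4, thapsigargin gave log2 fold changes of 2.51 for Fos, 1.603 for Fosb, 0.97 for Fosl2, 0.87 for Jun and 1.48 for Junb, all 5 still called. Of the tested genes in that fit 4147 were called higher, against 2800 in the fit of all 12 libraries. Setting each thapsigargin library against the control library of the same replicate number, the log2 ratio of Fos was 2.296, 2.479, 2.661 and 2.815 for numbers 1 to 4. The lowest ratio of a called gene in any pair was 0.807, for Jun. Fosl1 was above its control in 4 of 4 pairs, by 0.234 to 0.639, and Jund in 3 of 4, with ratios of -0.135 to 0.359.

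**Figure D2:**
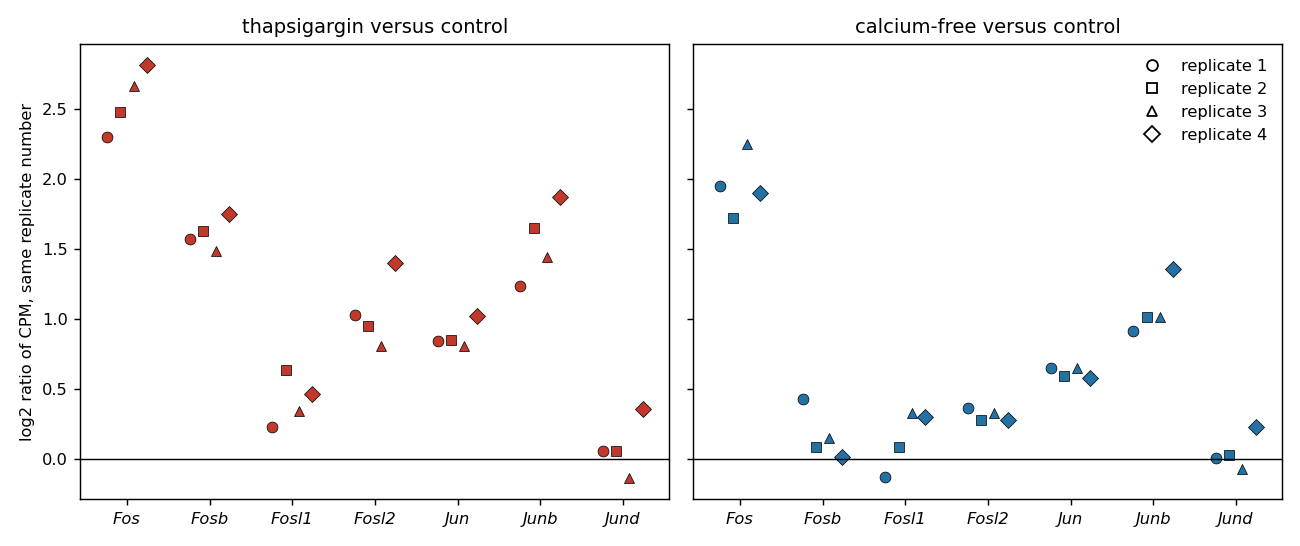
Log2 ratio of CPM in treated libraries over the control library of the same replicate number (vertical axis) for the 7 genes, thapsigargin at the left and calcium-free medium at the right. With thapsigargin 6 genes are above 0 in all 4 pairs and Jund in 3. In calcium-free medium Fos, Junb, Jun and Fosl2 (0.28 to 0.367) are above 0 in all 4 pairs. Fosb is too, with a ratio of 0.013 in replicate 4. For genes whose groups do not overlap, any pairing would give 4 of 4.

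Calcium-free medium raised Fos, Junb and Jun, 3 of the 7 subunit genes, where 3.78% of all tested genes were called higher and 1.55% lower (5.33% in all). It lowered 0, also at an unadjusted p under 0.05 and with DESeq2. The same 3 genes had all calcium-free libraries above the control libraries, as did 6.05% of all tested genes, and 4.44% lay all below. Fos rose by 1.95 ± 0.21 on the log2 scale, or 3.87-fold, at 155.7 ± 36.8 CPM in calcium-free medium and 40.18 ± 9.96 CPM in control (SD, n = 4; adjusted p = 0.000394 with edgeR), and held rank 4 of all tested genes by size of increase. Junb rose by 1.05 ± 0.16, or 2.07-fold (adjusted p = 0.00368), at 112.6 ± 14.5 CPM in calcium-free medium and 54.42 ± 13.1 CPM in control, rank 20. Jun rose by 0.62 ± 0.08, or 1.54-fold (adjusted p = 0.00128), at 245.7 ± 26.4 CPM in calcium-free medium and 159.8 ± 14.8 CPM in control, rank 97.

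Fosb, which among the 7 genes had the next largest rise under thapsigargin after Fos, was at rank 1997 in calcium-free medium. It stood at 13.14 ± 1.7 CPM there and at 11.62 ± 0.746 CPM in control, a log2 difference of 0.18 ± 0.11 with a 95% interval of -0.06 to 0.41 (adjusted p = 0.482). Fosl2 was at 56.6 ± 12.4 CPM in calcium-free medium and 45.39 ± 9.49 CPM in control, a difference of 0.32 ± 0.17 (95% interval -0.06 to 0.70, adjusted p = 0.396). Within pairs of the same number Fosl2 was higher by 0.28 to 0.367 in 4 of 4, and without replicate 4 it was called at 0.33 (adjusted p = 8.19e-05, where the range over all alternatives was 8.19e-05 to 0.807). Fosl1 was at 0.13 ± 0.24 (adjusted p = 0.906) and Jund at 0.05 ± 0.06 (95% interval -0.09 to 0.18, adjusted p = 0.845).

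The 3 rises in calcium-free medium were still called without replicate 4, with log2 fold changes of 1.97 for Fos, 0.98 for Junb and 0.64 for Jun, in a fit that called 1782 genes higher against 646 with all libraries. Leaving out replicate 2 in all groups ended the calls of Junb (1.06, adjusted p = 0.0873) and Jun (0.63, adjusted p = 0.0521), and so did leaving out replicate 3 (1.06, adjusted p = 0.0942 for Junb and 0.61, adjusted p = 0.0508 for Jun). Their fold changes hardly moved in those fits. Fos was called under all 24 alternatives, with log2 fold changes of 1.81 to 2.10.

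**Figure D3:**
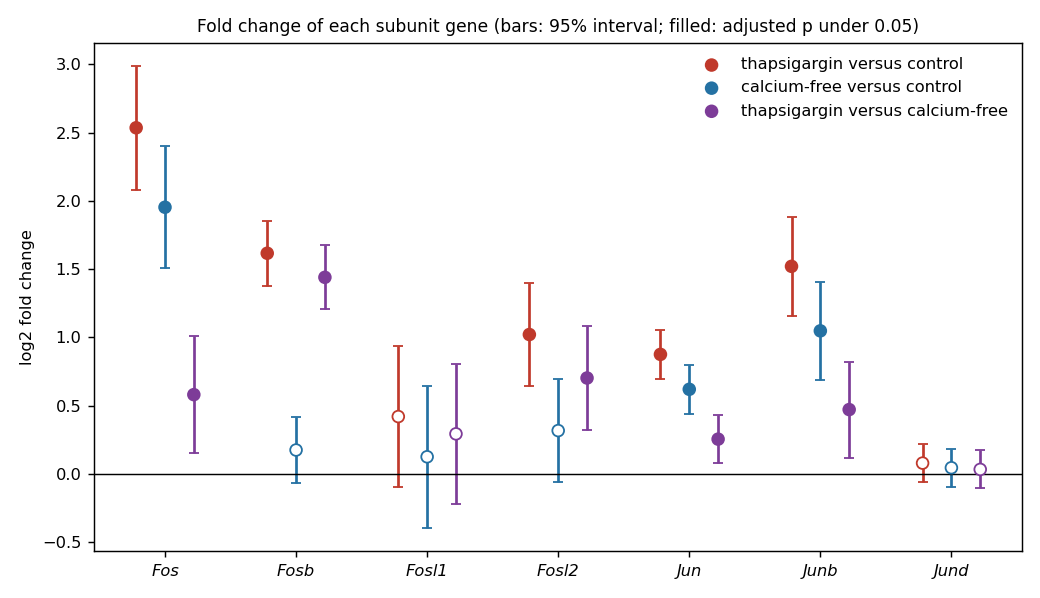
Log2 fold change (vertical axis) of the 7 genes in the 3 comparisons, with 95% intervals from the edgeR fit, filled where the adjusted p is under 0.05. Fos is highest against control in both treatments (2.54 and 1.95), Fosb is at 1.62 and 1.44 where thapsigargin is compared and at 0.18 in calcium-free medium, and all Jund intervals include 0.

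Set directly against calcium-free medium, thapsigargin gave the largest difference among the 7 genes in Fosb. Fosb was higher with thapsigargin by 1.44 ± 0.11 on the log2 scale, or 2.71-fold (adjusted p = 5.48e-06), and was called under all 24 alternatives. Fosl2 was higher by 0.70 ± 0.17, or 1.63-fold (adjusted p = 0.00959), Fos by 0.58 ± 0.20, or 1.5-fold (adjusted p = 0.0442), Junb by 0.47 ± 0.16, or 1.39-fold (adjusted p = 0.0465), and Jun by 0.26 ± 0.08, or 1.19-fold (adjusted p = 0.0345). In all, 5 of the 7 were higher, where 14.6% of all tested genes were called higher and 13.2% lower (27.9% in all), and 0 of the 7 were lower, also at an unadjusted p under 0.05 and with DESeq2. The groups did not overlap for these 5 genes, as for 14.9% of all tested genes in that direction and 13.4% in the other. Fosl1 was at 0.29 ± 0.24 (adjusted p = 0.399, and 0.0269 with the replicate block) and Jund at 0.03 ± 0.06 (adjusted p = 0.748).

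The calls of Fos, Junb and Jun in this comparison lay close to the threshold. Each was higher with thapsigargin in 4 of 4 pairs of the same number, by 0.345 to 0.916 for Fos, 0.32 to 0.635 for Junb and 0.156 to 0.441 for Jun. Because the groups of these genes did not overlap, any pairing of libraries would give 4 of 4. Leaving out libraries ended the call of Fos in 11 of 16 fits, of Junb in 11 and of Jun in 8, with adjusted p up to 0.217, 0.249 and 0.151, and of Fosl2 in the fits without replicate 1 (adjusted p = 0.0546) and without replicate 2 (0.0734). Libraries of all 3 groups were among those that mattered, and for Fos and Junb the calls also ended with upper quartile factors (adjusted p = 0.0503 and 0.0548) and without the low-count filter (0.111 and 0.101). Among them were the fits without replicate 4 of calcium-free medium, where Fos was at 0.44, Junb at 0.40 and Jun at 0.19 (adjusted p = 0.0834, 0.107 and 0.0541). Without replicate 4 in all groups, Fosb was at 1.37, Fosl2 at 0.64, Fos at 0.54, Junb at 0.50 and Jun at 0.24, all called, along with Fosl1 at 0.355 (adjusted p = 0.0264).

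Levels were also compared between genes, as CPM per kilobase of summed exon length. With thapsigargin Fos led, at 110.5 ± 14 CPM per kb, followed by Jun at 92.06 ± 3.53, Junb at 84.87 ± 10.2, Jund at 45.26 ± 1.69, Fosl2 at 13.01 ± 0.958, Fosb at 9.444 ± 1.34 and Fosl1 at 2.226 ± 0.589 (SD, n = 4). The libraries of Fos and Jun overlapped in that order, as did those of Jun and Junb, and the remaining neighbours did not. In calcium-free medium the order was Jun at 77.11 ± 8.28 CPM per kb, Fos at 73.82 ± 17.4, Junb at 61.18 ± 7.87, Jund at 44.2 ± 1.14, Fosl2 at 7.993 ± 1.76, Fosb at 3.48 ± 0.449 and Fosl1 at 1.817 ± 0.343, where Jun, Fos and Junb overlapped with their neighbours. In control Jun came first at 50.15 ± 4.64 CPM per kb, then Jund at 42.81 ± 4.42, Junb at 29.58 ± 7.13, Fos at 19.05 ± 4.72, Fosl2 at 6.409 ± 1.34, Fosb at 3.078 ± 0.198 and Fosl1 at 1.663 ± 0.437. There Jun overlapped with Jund and Junb with Fos. Fos thus held the fourth place of 7 in control, and even there it was above 78.6% of all tested genes per length.

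Shares within a family do not depend on library scaling, and they show how the RNA pool of each family was made up. Fos made up 81.6 ± 1.73% of the FOS family's CPM per kb with thapsigargin, 84.5 ± 1.19% in calcium-free medium and 62.6 ± 3.6% in control (SD, n = 4). Its share was above every control library in all 8 treated libraries. Fosl2 made up 9.66 ± 0.441% with thapsigargin, 9.2 ± 0.622% in calcium-free medium and 21.3 ± 2.68% in control, so its share was lower with thapsigargin although its own level rose. Fosb was at 7.1 ± 1.69% with thapsigargin, 4.15 ± 1.07% in calcium-free medium and 10.6 ± 3.09% in control, and Fosl1 at 1.63 ± 0.272% with thapsigargin, 2.11 ± 0.172% in calcium-free medium and 5.45 ± 0.505% in control.

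In the JUN family the share of Jun was nearly the same in all groups, at 41.5 ± 0.839% with thapsigargin, 42.2 ± 1% in calcium-free medium and 41.1 ± 1.83% in control. Junb and Jund traded places. Junb was at 38.1 ± 2.48% with thapsigargin, 33.4 ± 1.65% in calcium-free medium and 23.9 ± 3.39% in control, and Jund at 20.4 ± 1.7% with thapsigargin, 24.4 ± 2.16% in calcium-free medium and 35.1 ± 2% in control. The summed FOS family level was 0.607 ± 0.0312 times that of the JUN family with thapsigargin, 0.473 ± 0.0709 times in calcium-free medium and 0.245 ± 0.0273 times in control, and JUN RNA was more abundant in every library. Single libraries ran from 0.566 to 0.64 times with thapsigargin, 0.374 to 0.537 times in calcium-free medium and 0.22 to 0.271 times in control. No test was run on shares or sums. Without division by length, Fos made up 63.8% of the FOS counts with thapsigargin, 67.9% in calcium-free medium and 39.9% in control, and Fosl2, the longest of the 4, 25.3% with thapsigargin, 24.8% in calcium-free medium and 45.3% in control.

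**Figure D4:**
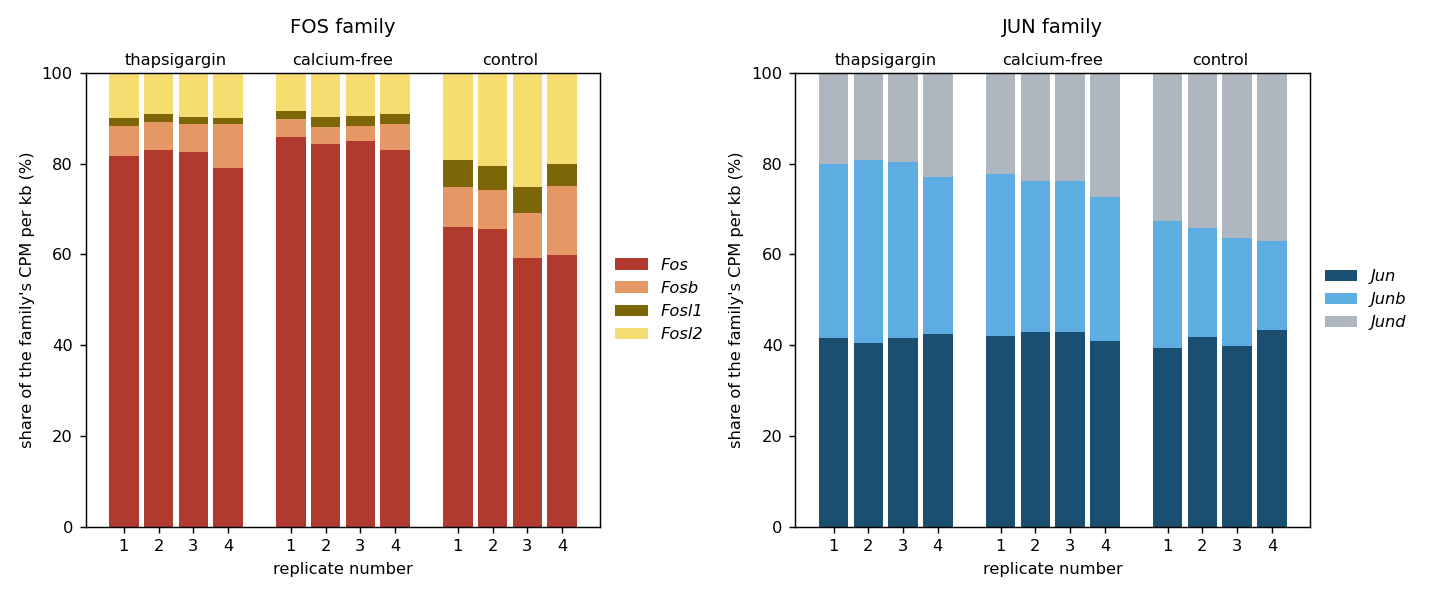
Share of each gene in the summed CPM per kb of its family (vertical axis, percent) in each library, with replicate numbers along the horizontal axis, the FOS family at the left and the JUN family at the right. The Fos band covers 79.1 to 83% with thapsigargin, 83 to 85.8% in calcium-free medium and 59.2 to 66% in control, and the Jund band is widest in control.

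Replicate 4 differed from replicates 1 to 3 in the subunit genes too. Its value was below all 3 others in 16 of 21 combinations of gene and group, within their range in 2 and above them in 3. Fos in replicate 4 was 0.797 times the mean of the others with thapsigargin, 0.599 times in calcium-free medium and 0.627 times in control. Fosl1, Fosl2, Jun and Junb were below the others in all 3 groups as well. Fosb went the other way in 2 groups, at 42.55 CPM in replicate 4 against 30.42 to 35.3 CPM in the others with thapsigargin, and at 12.64 against 10.86 to 11.59 CPM in control, but within their range in calcium-free medium, at 12.76 against 12.07 to 15.64 CPM. Jund in replicate 4 was above the others with thapsigargin (136.4 against 124.9 to 131 CPM), within their range in calcium-free medium and below them in control. In the same libraries the summed proliferation markers were at 2683 CPM with thapsigargin, 2857 CPM in calcium-free medium and 2913 CPM in control, the highest of each group. The summed microglia markers were at 144.1 CPM with thapsigargin, 167.1 CPM in calcium-free medium and 172.7 CPM in control, the lowest of each group. The summed astrocyte markers were also lowest in replicate 4, at 13130 CPM with thapsigargin, 14990 CPM in calcium-free medium and 14390 CPM in control. Their part in the AP-1 values was not tested.

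Genes with the most similar pattern were sought among 11590 or more named genes above an average level of 2 in log2 CPM, by the root mean square difference over the 12 libraries in log2 CPM relative to each gene's control mean. Nearest to Fos were Csrnp1 (difference 0.383), Gadd45g (0.444) and Arc (0.514), all known immediate early or stress-induced genes. For the other 6 subunit genes the nearest gene lay within 0.174, so Fos had the least similar nearest gene of the 7. Nearest to Fosb were Klf2 (0.147), a zinc finger factor, Map3k14 (0.163), the kinase of noncanonical NF-kB signalling, and the noncoding RNA gene Chaserr (0.207). Klf2 was at 25.38 ± 3.16 CPM with thapsigargin, 9.274 ± 0.259 CPM in calcium-free medium and 8.037 ± 0.765 CPM in control (SD, n = 4). Since these genes were chosen for their likeness, that they share a subunit gene's changes follows from the choice.

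Junb was nearest to Ier3 (0.174), Amotl2 (0.213) and Dusp1 (0.236), and Dusp1, which encodes a phosphatase that switches off MAP kinases, rose by 1.55 ± 0.18 with thapsigargin and 1.38 ± 0.18 in calcium-free medium, where the call was lost without replicate 2 in all groups (1.37, adjusted p = 0.0584). Fosl2 was nearest to Dusp5 (0.166), the clock-linked repressor Nfil3 (0.168) and the EGF receptor inhibitor Errfi1 (0.175). Jun was nearest to Enc1 (0.0856), Trib1 (0.0971) and Nuak1 (0.0985). Tiam2 (0.117), Cyp26b1 (0.131) and Noct (0.138) were nearest to Fosl1, and Ccdc190 (0.0505), Fam104a (0.0567) and Clpx (0.0614) to Jund.

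Among the other zipper proteins that can pair with or compete with FOS and JUN, 15 of 19 listed genes were tested. With thapsigargin 7 rose and 1 fell, with a median log2 fold change of 0.209 beside -0.047 for all tested genes. Among all tested genes 16.4% were called higher and 14.8% lower. Atf3, a stress-induced partner of JUN proteins, rose by 2.04 ± 0.12, at 36.42 ± 1.52 CPM with thapsigargin and 8.856 ± 1.7 CPM in control. Ddit3, which encodes CHOP, rose by 1.32 ± 0.11, and Mafk, a small MAF factor without an activation domain, by 0.76 ± 0.06. In calcium-free medium 3 rose and 0 fell (0 also at an unadjusted p under 0.05 and with DESeq2), with a median of 0.046. Among all tested genes 3.78% were called higher there and 1.55% lower. Without replicate 4, 9 rose and 1 fell with thapsigargin, and 4 and 0 in calcium-free medium, where the replicate block gave 5 and 0. Over all genes, the fit without replicate 4 called 4147 higher and 3598 lower with thapsigargin, and 1782 and 877 in calcium-free medium. With the block these counts were 3920 and 4817, and 1771 and 1197. Mafk rose by 0.41 ± 0.06 in calcium-free medium with all libraries, a call lost without replicate 2 (adjusted p = 0.0749) or 3 (0.0508) in all groups. Ddit3 was at 0.04 ± 0.11 there (adjusted p = 0.958). Atf3 was called there at 0.48 ± 0.12 (adjusted p = 0.0468). This call was lost without any 1 of replicates 1 to 3 of any group (9 single libraries, adjusted p up to 0.131). It was also lost without replicate 1, 2 or 3 in all groups (up to 0.283) and in a fit of the 2 groups alone (0.129). Upper quartile factors (0.0701), limma-voom (0.0509) and a minimum count of 50 (0.0502) ended it too.

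Signals reach the Fos promoter through serum response factor with its partners and through CREB with its coactivators, and 18 of 18 such genes were tested. With thapsigargin 12 rose and 1 fell, with a median of 0.332, where 16.4% of all tested genes were called higher and 14.8% lower. The CREB coactivator gene Crtc3 rose by 0.71 ± 0.05, at 44.94 ± 1.81 CPM with thapsigargin and 27.39 ± 0.961 CPM in control, Mef2d by 0.47 ± 0.04, and the SRF cofactor gene Mrtfa by 0.44 ± 0.04. In calcium-free medium 7 rose and 0 fell (0 also at an unadjusted p under 0.05 and with DESeq2), with a median of 0.147. Among all tested genes 3.78% were called higher there and 1.55% lower. Without replicate 4, 13 rose and 1 fell with thapsigargin, and 9 and 1 in calcium-free medium. That fit called 4147 of all genes higher and 3598 lower with thapsigargin, and 1782 and 877 in calcium-free medium. Crtc3 rose there by 0.28 ± 0.05, a call lost without replicate 2 (adjusted p = 0.151) or 3 (0.121) in all groups, and Mrtfa was at -0.02 ± 0.04 (adjusted p = 0.942). Mef2d was called in calcium-free medium at 0.19 ± 0.04 (adjusted p = 0.0318). Leaving out replicate 2 or 3 of thapsigargin or calcium-free medium, or 1 or 2 of control, ended the call (adjusted p up to 0.102). It also ended with upper quartile factors (0.0748) and in a fit of the 2 groups alone (0.0915). The same held without replicate 1, 2 or 3 in all groups (up to 0.325).

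Upstream MAP kinase genes changed by small amounts. Of 30 tested, 4 rose and 9 fell with thapsigargin, with a median of -0.019. Among all tested genes 16.4% were called higher and 14.8% lower. In calcium-free medium 1 rose and 0 fell, where 3.78% of all tested genes were called higher and 1.55% lower. Of the 30, 5 were higher and 3 lower there at an unadjusted p under 0.05, and DESeq2 called 3 higher and 0 lower. Braf, a RAF kinase gene, rose by 0.34 ± 0.05 with thapsigargin, whereas Map2k4, a kinase of JNK, was at -0.20 ± 0.04 and Rps6ka4, a kinase that phosphorylates CREB and histones, at -0.39 ± 0.06, both called lower. In calcium-free medium Braf was called at 0.22 ± 0.05 (adjusted p = 0.032). The call ended without replicate 2 or 3 of calcium-free medium or any 1 control library (adjusted p up to 0.0899). It also ended in a fit of the 2 groups alone (0.0725) and without replicate 1, 2 or 3 in all groups (up to 0.264). With the replicate block 7 of the 30 rose and 11 fell with thapsigargin, and 5 and 1 in calcium-free medium. Without replicate 4, 9 rose and 8 fell with thapsigargin, and 4 and 1 in calcium-free medium. Over all genes the block called 3920 higher and 4817 lower with thapsigargin, and 1771 and 1197 in calcium-free medium. The fit without replicate 4 called 4147 and 3598 with thapsigargin, and 1782 and 877 in calcium-free medium.

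A list of 18 genes for the turnover and repression of AP-1 covers decay or stability of its short-lived mRNAs, breakdown of its proteins and repression, and includes Elavl1, whose product stabilises such mRNAs, and Jdp2, also counted among the zipper partners. With thapsigargin 11 rose and 1 fell, with a median of 0.24, where 16.4% of all tested genes were called higher and 14.8% lower. Zfp36l2 and Zfp36l1, which encode proteins that bind AU-rich mRNA elements and hasten decay, rose by 0.86 ± 0.07 and 0.61 ± 0.06, and the deacetylase gene Sirt1 by 0.76 ± 0.09. In calcium-free medium 4 rose and 0 fell, with a median of 0.116. At an unadjusted p under 0.05, 9 were higher and 1 lower there, and DESeq2 called 6 and 0. Among all tested genes 3.78% were called higher there and 1.55% lower. Zfp36l2 rose by 0.99 ± 0.07 there, at 150.9 ± 11.6 CPM in calcium-free medium and 75.87 ± 5.03 CPM in control, and did not pass the test between thapsigargin and calcium-free medium (-0.13 ± 0.07, adjusted p = 0.193). Sirt1 was at -0.08 ± 0.09 in calcium-free medium (adjusted p = 0.781), and was higher by 0.84 ± 0.09 with thapsigargin than in calcium-free medium. With the replicate block 8 of these genes rose in calcium-free medium and 1 fell, and without replicate 4, 9 rose and 1 fell. With thapsigargin the block gave 13 higher and 3 lower, and the fit without replicate 4 gave 13 and 1. Over all genes the block called 3920 higher and 4817 lower with thapsigargin, and 1771 and 1197 in calcium-free medium. Without replicate 4 the counts over all genes were 4147 and 3598 with thapsigargin, and 1782 and 877 in calcium-free medium.

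Of 48 listed genes reported as AP-1 targets 41 were tested. With thapsigargin 6 rose and 6 fell, where 16.4% of all tested genes were called higher and 14.8% lower, and 29 of the 41 had a log2 fold change below 0, with a median of -0.091 beside -0.047 for all tested genes. Ptgs2, which encodes the inducible cyclooxygenase, rose by 1.97 ± 0.34, at 32.61 ± 7.63 CPM with thapsigargin and 8.338 ± 3.02 CPM in control. Itga5, an integrin subunit gene, and Cd9, a tetraspanin gene, were lower, at -0.50 ± 0.09 and -0.38 ± 0.04. In calcium-free medium edgeR called 0 higher and 0 lower, with a median of 0.02, where 3.78% of all tested genes were called higher and 1.55% lower. DESeq2 called 0 and 1 of the listed genes there, and 1 and 3 had an unadjusted p under 0.05. The replicate block moved the counts of listed genes to 10 higher and 15 lower with thapsigargin and to 6 higher and 3 lower in calcium-free medium. Over all genes the block called 3920 higher and 4817 lower with thapsigargin, and 1771 and 1197 in calcium-free medium. Without replicate 4 the listed genes gave 9 and 14 with thapsigargin and 5 and 4 in calcium-free medium. That fit called 4147 of all genes higher and 3598 lower with thapsigargin, and 1782 and 877 in calcium-free medium. Both treatments were compared with the same 4 control libraries, so their values are not independent of each other.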

How the data were processed

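The deposited table holds expected counts per gene, made by the authors from 12 libraries. Per the submitters' processing notes, the tools were featureCounts 1.6.4, STAR 2.7.2b, cutadapt 1.17 and bcl2fastq 2.20.0.422, with GRCm39; no source used here states their options or the strand setting. Between 14.2% and 15.9% of values per library were not whole, so counts were rounded. No column belonged to a sample outside these 12. No molecular identifiers are described, so precision is that of read counts (36.19 to 42.57 M per library).

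The test was edgeR's quasi-likelihood test (edgeR 4.0.16 in R 4.3.3, robust, TMM scaling), with 1 mean per group in 1 fit of all 12 libraries, after filterByExpr with its minimum count of 10. The Benjamini-Hochberg method adjusted p over the 17077 genes of each comparison, and an adjusted p under 0.05 made a call. CPM use normalised library sizes, and a standard error is the log2 fold change over the root of the F statistic. The summed exon length in the deposited table gave CPM per kb. Alternatives were DESeq2 1.42.0, limma-voom (limma 3.58.1), other scalings and filters, the replicate block, fits of 2 groups, and fits without libraries. The test was also run on simulated counts drawn independently for each library. These lacked the shared deviation of replicate 4, so that run does not show how the test handles it.

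The 7 genes and the lists were chosen with earlier results of these data known. Beyond the 7 genes, 3 genes per list are named, those whose p over all 3 groups was smallest, and the 3 nearest genes by pattern. Fits of the list counts without libraries or with the block were added after seeing the data. Same-numbered libraries of different groups deviated together (r across genes 0.159 to 0.836, and 0.814 to 0.836 for replicate 4). The numbers were treated as pairing only in the replicate block and in the ratios of same-numbered libraries. The main test ignored them. Numbers 1 to 3 gave 0.159 to 0.392 when shared and 0.238 to 0.412 when not, so sharing a number gave no higher r among them. With replicate 4 removed, shared numbers gave -0.144 to -0.00319. All 18 pairs of replicates exceeded sampling noise, by chi-square per degree of freedom. Pairs that included replicate 4 were at 38.04 to 46.02, and pairs among replicates 1 to 3 at 1.659 to 19.03.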

Additional observations from a re-analysis of the deposited data

Results flagged for a closer look

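In each group of 4 libraries, the highest and lowest value of each of the 7 genes was compared with the rest by Dixon's test at the 95% level. Of 21 combinations, 2 stood out, where chance flags about 1 in 20. Jun in calcium-free replicate 4 was at 206.2 CPM, while the other 3 libraries lay between 257 and 261.4 CPM, so that the gap took up 0.919 of the range. Fosl2 in the same library was at 38.2 CPM, against 61.16 to 65.67 CPM in the others, with a gap of 0.836. Control replicate 4 was also the lowest of its group for both genes, at 138 CPM for Jun and 31.43 CPM for Fosl2.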

How the results depend on the processing

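Under 24 alternatives for each comparison, the log2 fold changes of Fos (2.39 to 2.64), Fosb (1.52 to 1.69), Fosl2 (0.881 to 1.099), Jun (0.81 to 0.91) and Junb (1.37 to 1.64) with thapsigargin kept their direction and their call. Direction changed, without any call, for Fosl1 in calcium-free medium without control replicate 4 (-0.039, range over fits without libraries -0.039 to 0.258) and for Jund there without control replicate 4 (-0.017) and without replicate 4 in all groups (-0.004, range -0.017 to 0.103). Leaving out libraries or replicate numbers gave 1 to 4 called subunit genes in calcium-free medium (3 in all libraries), 1 to 6 between thapsigargin and calcium-free medium (5), and 5 to 6 for thapsigargin against control (5). Between thapsigargin and calcium-free medium, 3 were called with upper quartile factors and 3 without the low-count filter.

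Counts over all genes moved more. Leaving out libraries gave 1085 to 3598 genes lower for thapsigargin against control, 50 to 1782 higher and 9 to 877 lower for calcium-free medium against control, and 1363 to 3684 higher and 784 to 3293 lower between the treatments. With the replicate block they were 3920 higher and 4817 lower for thapsigargin against control, 1771 and 1197 for calcium-free medium, and 3833 and 4595 between the treatments. Without the low-count filter, 1456, 175 and 1247 were lower in these comparisons. For calcium-free medium DESeq2 called 1058 higher and 428 lower, and a fit of the 2 groups alone 404 and 96. Its share of higher calls was 70.9% with TMM and 58.5% with upper quartile factors. The replicate block changed the call of no other of the 7 genes than Fosl1, called with thapsigargin against control and against calcium-free medium.

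Of the 2592 alternative values of 36 other named genes, 2473 kept direction and side, 70 lost and 26 gained the call, and 23 changed sign, the last near 0 and uncalled. Over fits without libraries, log2 differences in calcium-free medium against control ran from -0.058 to 0.129 for Ddit3, -0.038 to 0.006 for Mrtfa, -0.147 to 0.007 for Map3k14, -0.122 to 0.032 for Chaserr, -0.014 to 0.272 for Cyp26b1 and -0.003 to 0.068 for Ccdc190. Between the treatments they ran from -0.012 to 0.038 for Fam104a and -0.032 to 0.009 for Clpx. Fam104a was also at 0.006 with RLE size factors, 0.006 with DESeq2, 0.031 without the low-count filter, 0.007 with a minimum count of 50 and 0.013 in the fit of 2 groups, and Clpx at 0.013 without the filter. The causes were not tested. Depth limits Fosl1 most, at 76 to 214 counts per library.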
